A study of Mus musculus with 36 samples.

Results

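Dendritic cells labelled cDC2 were compared with dendritic cells labelled cDC1 after both had been given lipopolysaccharide (LPS) together with the oxidised phospholipid PGPC. The members are 6 of the 36 RNA sequencing libraries of the series, taken by their labels: cDC1 replicates 1, 2 and 3 and cDC2 replicates 4, 5 and 6, all grown from bone marrow of mice in FLT3 ligand before being given LPS plus PGPC. Libraries of both cell types without treatment, with LPS alone and with PGPC alone were used to ask whether the difference between the cell types was itself different under LPS plus PGPC. The series calls the 3 replicates of a group biological. The mouse strain, the doses, the times and the way in which cDC1 and cDC2 were separated are not stated in the labels. What separates the replicates is not stated either, so p-values measure only the spread between libraries within groups. That spread was pooled over the 23 libraries in 8 groups that were fitted, of which these 6 are a part.

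Conventional dendritic cells present antigen to T cells and are divided into cDC1, which depend on the transcription factors IRF8 and BATF3 and are known for cross-presentation to CD8 T cells, and cDC2, many of which depend on IRF4 and carry SIRPA. FLT3 ligand drives the growth of both from bone marrow precursors. LPS is sensed by TLR4 with CD14 and switches on inflammatory and interferon-inducible genes. PGPC is an oxidised phospholipid known to act with LPS to bring about a hyperactive state, in which living phagocytes release IL-1β through inflammasomes.

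Summed expected counts were 6121000.0, 8290415 and 11999793 in cDC1 replicates 1 to 3 and 8283434, 2959343 and 3982392 in cDC2 replicates 4 to 6, and between 13922 and 15469 genes had a count. Levels are given as CPM, counts relative to the scaled library total, always in the order of these replicate numbers. The numbers name libraries and pair no cDC1 library with a cDC2 library. Spearman correlations of levels were 0.892 to 0.955 among the cDC1 libraries, 0.882 to 0.948 among the cDC2 libraries and 0.806 to 0.891 between them. Counts on the ribosomal RNA locus made up 7.70%, 26.6% and 39.1% of the cDC1 libraries and 32.9%, 28.2% and 22.4% of the cDC2 libraries.

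The identity markers separated the groups only in part in the way the labels name them: more cDC1 genes were lower than higher in the cDC2 libraries, but so were more cDC2 genes. Of 20 cDC1 identity genes, 6 were lower and 2 higher in the cDC2 libraries, with a median log2 difference of -1.03. Without cDC2 replicate 4 or without cDC2 replicate 5 the 6 fell to 2, and the median was -1.60 without cDC2 replicate 4. Xcr1, the chemokine receptor that defines cDC1, was at 1.41, 0.910 and 0.375 CPM in the cDC1 libraries and 4.61, 2.14 and 0 CPM in the cDC2 libraries, a log2 difference of 1.34 ± 1.30 (adjusted p = 0.63). Its level was low in all 6 libraries and the groups overlapped. Clec9a, the dead cell receptor of cDC1, was at 0.128, 9.10 and 1.59 CPM in the cDC1 libraries and 0, 0 and 0.228 CPM in the cDC2 libraries, from 98 and 1 counts in all. The groups overlapped through cDC1 replicate 1, and the call (adjusted p = 0.0323) was lost without cDC1 replicate 2 (adjusted p = 0.21) and without cDC2 replicate 4, 5 or 6 (0.185, 0.107 and 0.0633), and with the replicate number as a block (0.071).

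Irf8 was at 682, 197 and 217 CPM in the cDC1 libraries and 123, 104 and 91.9 CPM in the cDC2 libraries, a log2 difference of -1.78 ± 0.43 (adjusted p = 0.0121). No cDC2 library reached a cDC1 library, but cDC1 replicate 1 stood well above the other two, and without it the difference was -0.94 (adjusted p = 0.171). The call was also lost without cDC2 replicate 5 (adjusted p = 0.052) and in a fit of the 6 libraries alone (0.066). Batf3 was at 45.1, 23.9 and 22.9 CPM in the cDC1 libraries and 2.53, 5.50 and 8.89 CPM in the cDC2 libraries (log2 difference -2.45 ± 0.66, adjusted p = 0.0228), with no overlap and with the call lost without cDC1 replicate 1, cDC2 replicate 4 or cDC2 replicate 5 (adjusted p = 0.095, 0.125 and 0.0809). Cd24a, a surface marker of cDC1 in such cultures, was at 53.9, 47.1 and 46.7 CPM in the cDC1 libraries and 0.892, 7.03 and 5.01 CPM in the cDC2 libraries. It was lower in every cDC2 library, with a log2 difference of -3.56 ± 0.52 (adjusted p = 0.000103). Rab7b, a lysosomal GTPase on the same list, went the other way, at 25.9, 23.8 and 17.3 CPM in the cDC1 libraries and 339, 147 and 78.9 CPM in the cDC2 libraries (log2 difference 3.08 ± 0.61, adjusted p = 0.00239). The fit of all 36 libraries gave an adjusted p of 0.92 for Irf8, 0.12 for Batf3, 0.35 for Cd24a and 0.087 for Rab7b.

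Of 19 cDC2 identity genes tested, 2 were higher and 4 lower in the cDC2 libraries, with a median log2 difference of -0.77. The list therefore held more genes called against its name than with it. Without cDC2 replicate 4 the counts were 1 and 2, and without cDC1 replicate 2 or 3 the higher count was 1. The median moved more: it was 0, -0.37 and -0.49 without cDC1 replicates 1, 2 and 3, -0.50 without cDC2 replicate 5, -0.18 by DESeq2 and -0.21 with genes lacking counts in 1 group at their bound. Irf4, the transcription factor most tied to cDC2, was at 17.8, 28.1 and 27.1 CPM in the cDC1 libraries and 3.72, 7.33 and 4.79 CPM in the cDC2 libraries and was lower in the libraries labelled cDC2 (log2 difference -2.22 ± 0.54, adjusted p = 0.0127, 0.0793 without cDC2 replicate 4). Tmem176b, an ion channel of cDC2, was also lower, at 556, 737 and 649.6 CPM in the cDC1 libraries and 156, 191 and 227 CPM in the cDC2 libraries (log2 difference -1.76 ± 0.40, adjusted p = 0.00734). Sirpa was at 619, 381 and 334 CPM in the cDC1 libraries and 1776, 763 and 649 CPM in the cDC2 libraries, above in every cDC2 library, with a log2 difference of 1.26 ± 0.46 that missed the threshold (adjusted p = 0.101, 0.042 by DESeq2). Clec12a, an inhibitory lectin of cDC2 and monocytes, was higher, at 9.37, 17.3 and 12.4 CPM in the cDC1 libraries and 81.02, 73.01 and 45.4 CPM in the cDC2 libraries (log2 difference 2.35 ± 0.46, adjusted p = 0.00239). The fit of all 36 libraries gave 0.13 for Irf4, 0.82 for Tmem176b and 0.73 for Clec12a. In what follows, cDC1 and cDC2 are the names on the libraries.

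Of 12463 genes tested, 890 (7.14%) differed between the cell types at an adjusted p under 0.05. In the cDC2 libraries 573 of them were higher (4.6% of the genes tested) and 317 were lower (2.54%). For every gene list in this report, counts of higher and lower members stand against these shares. Each of the 890 differed by a log2 of at least 1, and for 872 the 3 libraries of 1 group all lay beyond the 3 of the other, as they did for 27% of all genes tested. The calls held for 302 genes (238 higher and 64 lower) with every 1 of the 6 libraries left out in turn. Leaving out cDC2 replicate 4 gave 401 calls, cDC2 replicate 5 gave 534, cDC1 replicate 2 gave 564 and cDC1 replicate 3 gave 579. With all 36 libraries in the fit, among them alum libraries in which 467 to 2610 genes had a count, 143 genes were called, 118 of them higher.

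**Figure D1:**
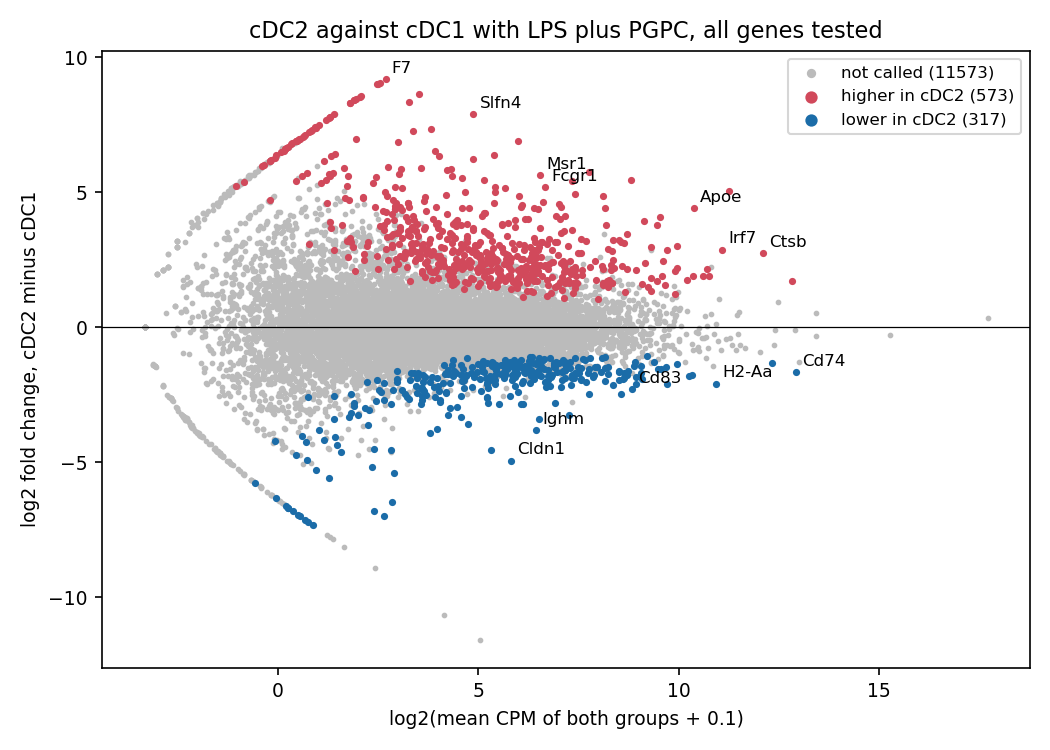
Log2 difference of cDC2 minus cDC1 with LPS plus PGPC for each gene tested (y axis) against its mean level as log2(mean CPM + 0.1) (x axis). Coloured points are genes called higher (573) or lower (317) in the cDC2 libraries, and called genes lie at a log2 difference of at least 1 on either side.

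The called genes were read beside the same comparison in the other treatments, which shares no library with this one. There the cell types differed in 10.2% of the genes tested without treatment (4.01% higher in cDC2 and 6.14% lower), in 7.8% with LPS (5.59% and 2.21%) and in 12.1% with PGPC (6.83% and 5.22%). Of the 573 genes higher in cDC2, 337 were also called higher with LPS alone (58.8% of the 573, 48.4% of the 697 called with LPS). Without treatment 176 of them were called higher (30.7%, and 35.2% of 500), and with PGPC alone 174 (30.4%, and 20.4% of 851). Of the 317 genes lower in cDC2, 185 were called lower without treatment (58.4%, and 24.2% of 765), 83 with LPS (26.2%, and 30.2% of 275) and 122 with PGPC (38.5%, and 18.7% of 651). In all 4 treatments 124 genes differed the same way, 80 higher and 44 lower. A further 84 were called with LPS plus PGPC and had an unadjusted p of 0.05 or more in each of the other treatments.

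**Figure D2:**
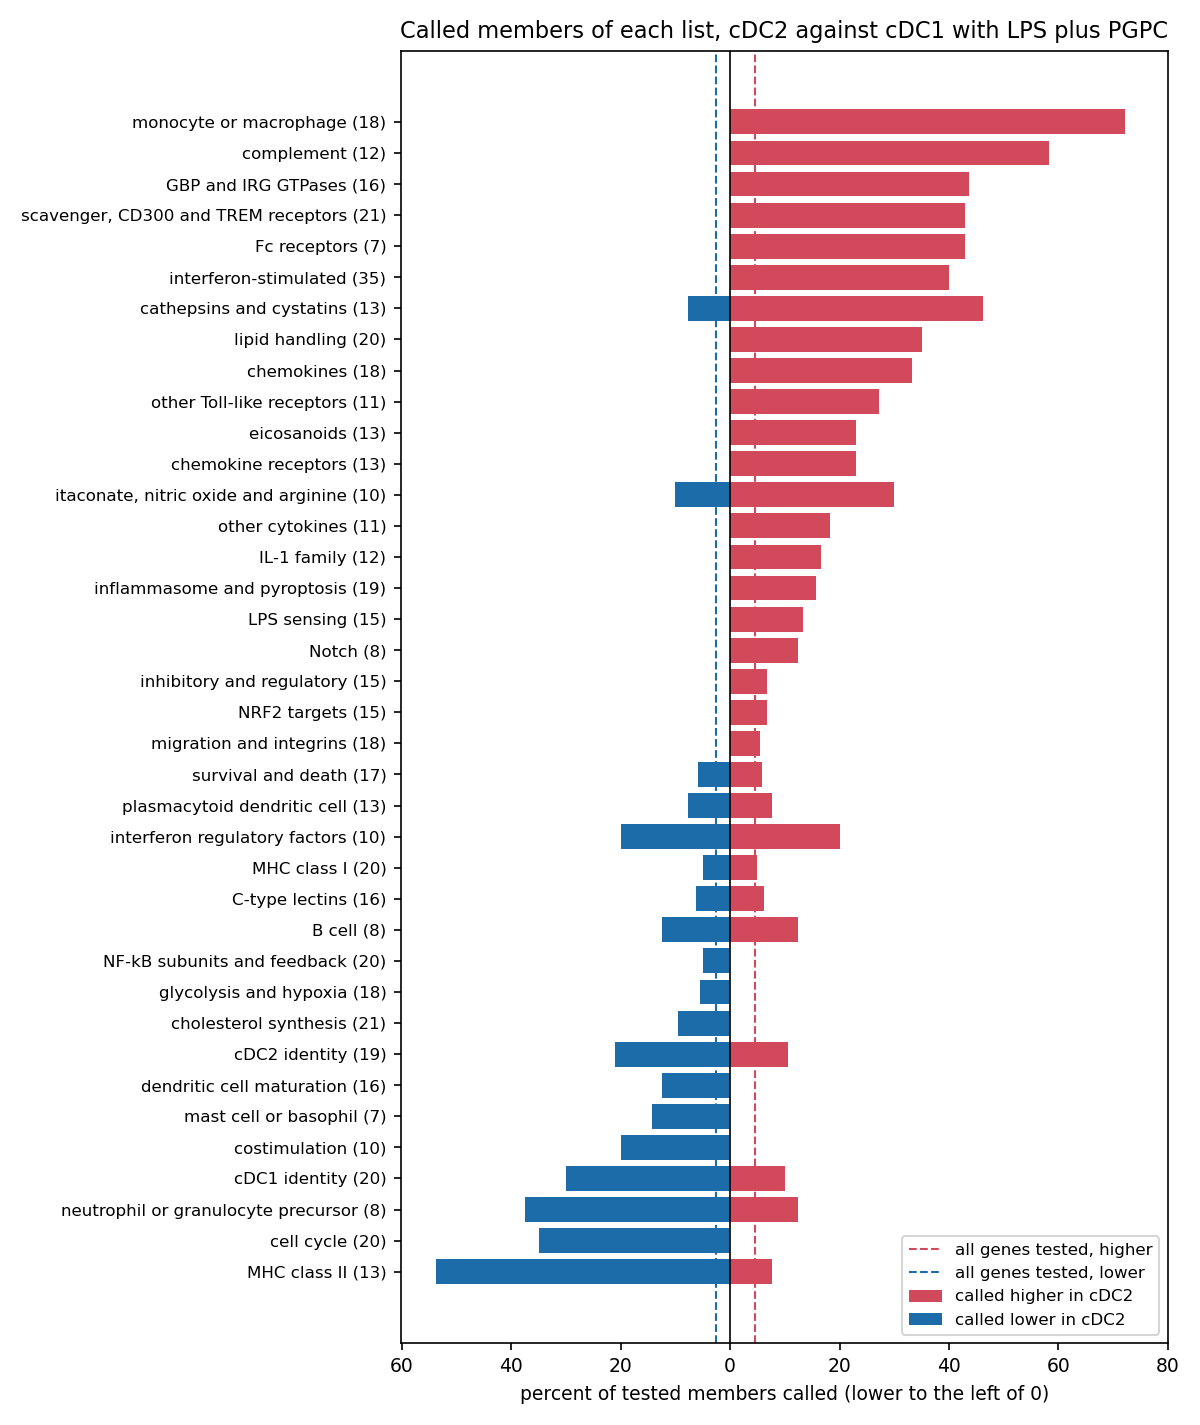
Percent of the tested members of each gene list that were called higher or lower in the cDC2 libraries with LPS plus PGPC, for lists with at least 7 tested members. The dashed lines give the percent of all tested genes called in each direction (4.6 and 2.54), and the bar of the monocyte or macrophage list, 13 of 18 genes, lies far above the line.

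Genes of monocytes and macrophages were higher in the cDC2 libraries. Of 18 such genes 13 were called higher and none lower (4.6% and 2.54% over all genes), with a median log2 difference of 2.28. Their summed level was 1210, 1166 and 855 CPM in the cDC1 libraries and 11270.4, 5430.4 and 4548 CPM in the cDC2 libraries. Every cDC2 library was thus above every cDC1 library, with cDC2 replicate 4 the highest. In bulk libraries fewer cells of a type and less RNA per cell cannot be told apart, and the part of such cells in the other differences was not tested. The list counts were 10 to 13 with 1 library left out and 5 with all 36 libraries.

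Fcgr1, the high-affinity IgG receptor CD64 that is used to tell macrophages from dendritic cells (GRCm38 chr3:96282909-96293969, minus strand), was at 2.31, 7.39 and 6.27 CPM in the cDC1 libraries and 231, 204 and 153 CPM in the cDC2 libraries. The lowest cDC2 library was far above the highest cDC1 library, and the log2 difference was 5.19 ± 0.62 (adjusted p = 1.09e-05). Mertk, a receptor for the uptake of dead cells, was at 0, 1.14 and 0 CPM in the cDC1 libraries and 65.4, 12.2 and 17.6 CPM in the cDC2 libraries (adjusted p = 0.000748). Only cDC1 replicate 2 held any count of it among the cDC1 libraries. Both genes passed the threshold with all 36 libraries too (adjusted p = 0.0033 and 0.017).

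Lyz2, which encodes lysozyme M, was at 320.2, 446 and 310.2 CPM in the cDC1 libraries and 1939, 1442 and 1509.8 CPM in the cDC2 libraries (log2 difference 2.18 ± 0.46, adjusted p = 0.00401). Cd68, a membrane protein of lysosomes in phagocytes, was at 41.7, 73.6 and 66.4 CPM in the cDC1 libraries and 301, 286 and 261 CPM in the cDC2 libraries (log2 difference 2.22 ± 0.45, adjusted p = 0.00287). Both genes had clear levels in the cDC1 libraries too. Apoe, a lipid carrier secreted by macrophages, was at 153, 135 and 66.3 CPM in the cDC1 libraries and 4878, 1598 and 1147 CPM in the cDC2 libraries, with cDC2 replicate 4 the highest (log2 difference 4.43 ± 0.65, adjusted p = 0.000113). With all 36 libraries the adjusted p was 0.93 for Lyz2, 0.88 for Cd68 and 0.14 for Apoe.

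Complement genes were higher as well, 7 of 12 tested with none lower (4.6% and 2.54% over all genes). Their median log2 difference was 2.66, and 5 to 8 were higher with 1 library left out. The subunits of C1q, which starts the classical pathway, were higher together. C1qa was at 0.128, 0.910 and 0.281 CPM in the cDC1 libraries and 12.9, 8.25 and 8.89 CPM in the cDC2 libraries, C1qb at 6.29, 18.99 and 5.81 CPM in the cDC1 libraries and 262, 237 and 244 CPM in the cDC2 libraries and C1qc at 1.54, 5.003 and 1.22 CPM in the cDC1 libraries and 107, 75.1 and 68.4 CPM in the cDC2 libraries. Their log2 differences were 4.45 ± 0.80, 4.58 ± 0.52 and 5.004 ± 0.66 (adjusted p = 0.000943, 6.38e-06 and 3.37e-05), and no cDC2 library overlapped a cDC1 library. The anaphylatoxin receptors followed, C3ar1 at 137, 317 and 265 CPM in the cDC1 libraries and 2134, 969.9 and 889 CPM in the cDC2 libraries (log2 difference 2.47 ± 0.48, adjusted p = 0.00218) and C5ar1 at 20.03, 25.4 and 16.3 CPM in the cDC1 libraries and 203, 134 and 108 CPM in the cDC2 libraries (log2 difference 2.85 ± 0.42, adjusted p = 0.000113). C3ar1 was well above zero in the cDC1 libraries, whereas C1qa was near it. With all 36 libraries C1qa and C1qc kept their calls (adjusted p = 0.0077 and 0.0051) and C1qb, C3ar1 and C5ar1 did not (0.19, 0.77 and 0.31).

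Of 7 Fc receptor genes 3 were called higher, and 2 without cDC1 replicate 1, cDC1 replicate 2, cDC2 replicate 4 or cDC2 replicate 5. Besides Fcgr1 they included Fcgr3, a low-affinity activating IgG receptor, at 0.770, 1.71 and 0 CPM in the cDC1 libraries and 12.04, 24.4 and 18.01 CPM in the cDC2 libraries (log2 difference 4.45 ± 0.78, adjusted p = 0.000732). Of 21 scavenger, CD300 and TREM receptors 9 were higher and none lower, and 6 without cDC1 replicate 2, cDC1 replicate 3 or cDC2 replicate 5. Over all genes tested 4.6% were higher and 2.54% lower. The inhibitory receptor Cd300lf, which binds lipids, was at 0.770, 1.71 and 0.468 CPM in the cDC1 libraries and 127, 68.1 and 54.9 CPM in the cDC2 libraries (log2 difference 6.39 ± 0.72, adjusted p = 6.38e-06). It was close to absent from the cDC1 libraries and abundant in the cDC2 libraries. The class A scavenger receptor Msr1, which takes up modified lipoproteins, was at 1.93, 3.87 and 5.06 CPM in the cDC1 libraries and 302, 157 and 88.9 CPM in the cDC2 libraries (log2 difference 5.64 ± 0.68, adjusted p = 1.09e-05). Trem2, a lipid-sensing receptor of macrophages, was at 10.1, 8.64 and 2.62 CPM in the cDC1 libraries and 114, 111 and 112 CPM in the cDC2 libraries, the 3 cDC2 libraries lying within a few CPM of each other (log2 difference 3.98 ± 0.54, adjusted p = 4.84e-05). Stab1, another scavenger receptor, was at 28.2, 50.6 and 36.9 CPM in the cDC1 libraries and 292, 113 and 119 CPM in the cDC2 libraries (log2 difference 2.18 ± 0.44, adjusted p = 0.00302). In the fit of all 36 libraries Cd300lf and Msr1 passed the threshold (adjusted p = 0.0011 and 0.0051) and Fcgr3, Trem2 and Stab1 did not (0.063, 0.3 and 0.38).

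**Figure D3:**
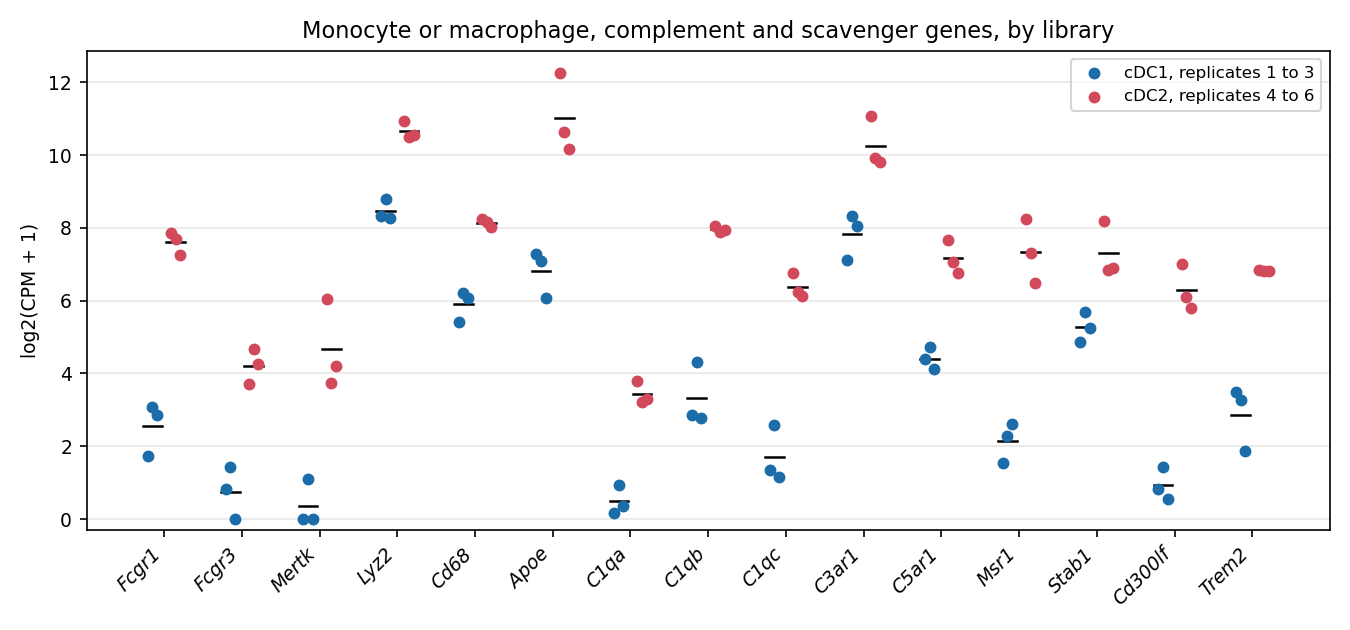
Level of 15 monocyte or macrophage, Fc receptor, complement and scavenger genes as log2(CPM + 1) (y axis) in each library with LPS plus PGPC, with points for libraries (blue cDC1, red cDC2) and bars for the means of the log values of a group. For each gene shown the 3 red points lie above the 3 blue ones.

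Markers of other cells were low or mixed. Over 8 neutrophil or granulocyte precursor genes tested, 1 was higher and 3 lower, and their summed level was 1.16, 75.6 and 20.8 CPM in the cDC1 libraries and 9.66, 3.67 and 6.38 CPM in the cDC2 libraries. Elane and Mpo, which define granulocyte precursors, had no count in either group. S100a8 was at 0.770, 26.4 and 13.2 CPM in the cDC1 libraries and 0.446, 0.305 and 0.912 CPM in the cDC2 libraries. S100a9 was at 0.257, 25.2 and 5.24 CPM in the cDC1 libraries and 0, 0 and 0.228 CPM in the cDC2 libraries. The 3 lower genes were S100a8, S100a9 and Ltf. Without cDC1 replicate 2, cDC2 replicate 4 or cDC2 replicate 5 none of the 3 was lower, and without cDC2 replicate 6 only 1 was. The summed level of B cell markers was 15.3, 16.8 and 24.5 CPM against 9.07, 10.7 and 7.98 CPM. Of 8 tested, Tnfrsf13c was called lower and Ebf1 higher, at 0.770, 0 and 0.375 CPM against 4.16, 8.55 and 3.87 CPM. The call of Ebf1 was lost without cDC1 replicate 2 or 3 or cDC2 replicate 5. Of 7 mast cell or basophil genes tested, Kit was called lower and none higher. Hdc on that list was at 7.06, 23.7 and 11.6 CPM against 123, 54.4 and 54.02 CPM, without a call. The summed level of T or NK cell markers was 0, 0.455 and 0.562 CPM against 0.595, 0.305 and 1.60 CPM. Among them Cd3d, which defines T cells, had no count in either group. Plasmacytoid dendritic cell markers summed to 826, 1098 and 731 CPM against 6945, 2969 and 2923 CPM, but Irf7, which is also induced by interferon, made up most of that. Of 13 such genes Irf7 was called higher and Siglech, which defines these cells, lower, with a median log2 difference of -1.15 (-0.17 without cDC1 replicate 2). Siglech was not called without cDC1 replicate 2 or without any 1 of the cDC2 libraries.

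MHC class II genes, whose products show antigen to CD4 T cells, were lower in the cDC2 libraries. Of 13 tested, 7 were lower and 1 higher (2.54% and 4.6% over all genes). Their median log2 difference was -1.64 against -0.03 over all genes. In the other treatments 6 were lower without treatment, 4 with LPS and 6 with PGPC. The promoters of 5 of the 7 are shown because the genes were lower together, each as 160 bases before the gene's start from the RefSeq promoter table (GRCm38.p6), written in the direction of the gene. The capitals mark ATTGG, the core of the Y box, one of the elements shared by class II promoters. The regions are chr17:34287824-34287983 on the minus strand for H2-Aa and, on the plus strand, chr17:34092219-34092378 for H2-Oa, chr17:34238745-34238904 for H2-Ob, chr17:34325515-34325674 for H2-Eb2 and chr17:34145089-34145248 for H2-DMb2.
H2-Aa: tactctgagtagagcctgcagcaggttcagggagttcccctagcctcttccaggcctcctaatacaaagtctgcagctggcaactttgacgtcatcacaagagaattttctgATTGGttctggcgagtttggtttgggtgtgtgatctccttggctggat
H2-Oa: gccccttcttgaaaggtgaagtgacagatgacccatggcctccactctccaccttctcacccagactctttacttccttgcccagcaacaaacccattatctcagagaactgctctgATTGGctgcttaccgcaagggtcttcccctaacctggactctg
H2-Ob: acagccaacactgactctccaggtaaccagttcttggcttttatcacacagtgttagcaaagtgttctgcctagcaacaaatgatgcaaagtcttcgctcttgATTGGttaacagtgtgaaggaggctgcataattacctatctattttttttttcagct
H2-Eb2: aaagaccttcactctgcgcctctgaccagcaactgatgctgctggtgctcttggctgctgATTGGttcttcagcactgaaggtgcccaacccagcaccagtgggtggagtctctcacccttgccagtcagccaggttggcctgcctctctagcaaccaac
H2-DMb2: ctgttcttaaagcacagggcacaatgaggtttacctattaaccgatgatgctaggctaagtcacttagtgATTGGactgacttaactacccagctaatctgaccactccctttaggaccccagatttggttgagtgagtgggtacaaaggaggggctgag
The match starts 48 bases before the gene's start in H2-Aa, 43 in H2-Oa, 57 in H2-Ob, 100 in H2-Eb2 and 90 in H2-DMb2. All 6 of the lower class II genes with a promoter in the table held ATTGG on one strand or the other in the table's window of 250 bases before to 50 after the start, as did 43.2% of the 9428 tested genes with a promoter, so a match in itself is common. H2-Eb1, a class II gene not among the 7 lower ones, held it as well, so the letters did not mark the lower members alone. This motif was searched after the class II values had been seen, and a match is a description of letters only.

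The classical chain gene H2-Aa (chr17:34282744-34287823, minus strand) was at 1807, 4113 and 3608 CPM in the cDC1 libraries and 620.1, 762 and 861 CPM in the cDC2 libraries. All 3 cDC2 libraries were below the lowest cDC1 library, and the log2 difference was -2.09 ± 0.44 (adjusted p = 0.00416). Cd74, the invariant chain that escorts class II molecules, was at 8621, 14151 and 12851 CPM in the cDC1 libraries and 2678, 3353 and 5238 CPM in the cDC2 libraries (log2 difference -1.66 ± 0.37, adjusted p = 0.00616). Fitted on the 6 libraries alone Cd74 just missed the threshold (adjusted p = 0.059). H2-DMb2, a chain of the peptide exchange factor H2-M, was at 92.8, 106 and 73.6 CPM in the cDC1 libraries and 28.5, 18.9 and 23.5 CPM in the cDC2 libraries (log2 difference -1.94 ± 0.43, adjusted p = 0.00682).

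H2-Oa and H2-Ob encode H2-O, which restrains H2-M. H2-Oa was at 23.5, 68.5 and 37.9 CPM in the cDC1 libraries and 5.20, 2.44 and 5.01 CPM in the cDC2 libraries (log2 difference -3.33 ± 0.58, adjusted p = 0.000651), and H2-Ob was at 8.35, 11.6 and 6.09 CPM in the cDC1 libraries and 1.34, 0.305 and 0.228 CPM in the cDC2 libraries (log2 difference -3.63 ± 0.82, adjusted p = 0.00756). H2-Eb2, a class II beta chain gene of low level, was at 36.6, 24.8 and 25.5 CPM in the cDC1 libraries and 2.53, 2.44 and 1.37 CPM in the cDC2 libraries (log2 difference -3.76 ± 0.84, adjusted p = 0.00673). All 3 genes were lower in every cDC2 library than in any cDC1 library. Over all 36 libraries H2-Ob and H2-Eb2 stayed past the threshold (adjusted p = 0.041 and 0.036), while H2-Aa, Cd74, H2-Oa and H2-DMb2 did not (0.66, 0.92, 0.74 and 0.1). The 20 MHC class I genes had a median log2 difference of -0.07, which ran from -0.17 to 0.23 without cDC1 replicates 3 and 1.

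Interferon-inducible genes were higher in the cDC2 libraries. Of 35 tested, 14 were higher and none lower (4.6% and 2.54% over all genes), with a median log2 difference of 1.61. The count was 6 without cDC2 replicate 4, 9 without cDC2 replicate 5, and 7, 8 and 7 without cDC1 replicates 1, 2 and 3, and 1 with all 36 libraries. Of 16 guanylate-binding protein (GBP) and immunity-related GTPase (IRG) genes, which interferon-γ induces, 7 were higher with a median of 1.91. Without cDC1 replicates 1, 2 or 3 these were 4, 5 and 3, and without cDC2 replicates 4 or 5 they were 3 and 4. Both lists leaned the same way in the other treatments. Of the 35 genes, 13 were higher and 1 lower without treatment (median 2.14). With LPS 14 were higher and none lower (1.69), and with PGPC 7 and 3 (0.68). Of the 16 GTPase genes 4, 6 and 3 were higher in that order, and 1 was lower with PGPC.

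Promoters of 3 interferon-inducible genes are shown as examples of called genes that hold the motif searched, again as 160 bases before the start from the RefSeq table (GRCm38.p6) in the direction of the gene. The capitals mark GAAA, any 2 bases and GAAA on either strand, the core of the interferon-stimulated response element (ISRE). The regions are chr19:34640729-34640888 on the plus strand for Ifit1, chr19:34601969-34602128 on the minus strand for Ifit1bl1 and chr1:174031756-174031915 on the minus strand for Ifi205.
Ifit1: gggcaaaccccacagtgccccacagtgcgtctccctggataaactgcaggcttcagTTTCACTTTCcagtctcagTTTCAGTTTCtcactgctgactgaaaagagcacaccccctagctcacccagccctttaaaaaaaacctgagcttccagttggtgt
Ifit1bl1: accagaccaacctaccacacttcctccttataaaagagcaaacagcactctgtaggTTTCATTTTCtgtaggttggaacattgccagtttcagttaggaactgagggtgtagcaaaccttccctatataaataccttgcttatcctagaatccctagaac
Ifi205: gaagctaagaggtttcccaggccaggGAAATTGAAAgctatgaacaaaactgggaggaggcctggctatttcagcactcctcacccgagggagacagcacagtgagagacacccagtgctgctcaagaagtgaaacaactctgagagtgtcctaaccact
Matches start 104 and 85 bases before the start in Ifit1, 104 in Ifit1bl1 and 134 in Ifi205. In the same window the motif was held by 4.16% of tested genes with a promoter (392 of 9428), by 11.2% of those called higher (49 of 437) and by 2.64% of those called lower (6 of 227). Within the interferon-inducible list it was held by 5 of 11 genes called higher and by 9 of 15 that were not called. These letters therefore did not separate called from uncalled members of the list, and Ifit2 and Slfn4, both higher, held no match in the table's window. Other motifs searched in this window were also held more often by genes called higher. The AP-1 motif TGANTCA was held by 12.4% of them against 6.4% of tested genes, and an ETS-IRF composite of GGAA, any 2 bases and GAAA, which can overlap the ISRE, by 5.72% against 2.86%. Of the other 4 motifs, the Y box was held by 41.2% against 43.2%, and both forms of the NF-kB motif and an AP-1-IRF composite by 4, 3 and 0 of these 437 genes.

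Irf7, the transcription factor that amplifies type I interferon, was at 533, 657 and 369.7 CPM in the cDC1 libraries and 6601, 2524 and 2339.9 CPM in the cDC2 libraries, with the highest cDC1 library far below the lowest cDC2 library (log2 difference 2.88 ± 0.60, adjusted p = 0.00369). The IFIT proteins bind viral RNA. Ifit1bl1 was at 15.8, 39.3 and 21.8 CPM in the cDC1 libraries and 882, 499 and 260.1 CPM in the cDC2 libraries (log2 difference 4.41 ± 0.85, adjusted p = 0.00244), and Ifit2 was at 137, 314 and 205 CPM in the cDC1 libraries and 2219, 1692 and 1378 CPM in the cDC2 libraries (log2 difference 3.01 ± 0.61, adjusted p = 0.00294). Ifit1 was at 136, 159 and 142 CPM in the cDC1 libraries and 1825, 1061 and 510.1 CPM in the cDC2 libraries, without overlap (log2 difference 2.96 ± 0.87, adjusted p = 0.0392). Its call was less secure than those of the other two, since the adjusted p was 0.105, 0.108 and 0.113 without cDC1 replicates 1, 2 and 3, 0.176 and 0.0797 without cDC2 replicates 4 and 5, and 0.063 by DESeq2.

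Cmpk2, a mitochondrial nucleotide kinase that interferon induces, was at 52.5, 147 and 85.6 CPM in the cDC1 libraries and 1098, 1622 and 1246 CPM in the cDC2 libraries (log2 difference 3.80 ± 0.76, adjusted p = 0.0028). Ifi205, of the DNA-sensing p200 family, was at 12.6, 70.05 and 34.7 CPM in the cDC1 libraries and 825, 479 and 319 CPM in the cDC2 libraries (log2 difference 3.79 ± 0.87, adjusted p = 0.00855). Slfn4, a Schlafen gene of myeloid cells, was at 0, 0.682 and 0 CPM in the cDC1 libraries and 79.2, 61.1 and 34.9 CPM in the cDC2 libraries, from 6 and 886 counts in all (adjusted p = 3.71e-05). It was nearly absent from the cDC1 libraries and present in all 3 cDC2 libraries. Ifit1bl1, Ifi205 and the other IFIT and p200 genes have close relatives in the mouse genome, between which the counting may have split reads, so their single values are uncertain to that extent.

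Among the GTPases, which act on vacuoles that hold microbes, Gbp6 was at 5.14, 7.05 and 4.59 CPM in the cDC1 libraries and 205, 119 and 64.96 CPM in the cDC2 libraries (log2 difference 4.53 ± 0.73, adjusted p = 0.00044), Iigp1 at 0, 1.25 and 0.656 CPM in the cDC1 libraries and 61.1, 38.8 and 17.1 CPM in the cDC2 libraries (log2 difference 5.87 ± 0.95, adjusted p = 0.00044) and Tgtp2 at 49.9, 85.1 and 74.5 CPM in the cDC1 libraries and 1542, 509 and 260.1 CPM in the cDC2 libraries (log2 difference 3.46 ± 0.71, adjusted p = 0.0037). Each stood highest in cDC2 replicate 4 and lowest, among the cDC2 libraries, in replicate 6. When all 36 libraries were fitted, Slfn4, Gbp6 and Iigp1 passed the threshold (adjusted p = 0.0033, 0.043 and 0.0076), and Irf7, Ifit1bl1, Ifit2, Cmpk2, Ifi205 and Tgtp2 did not (0.67, 0.1, 0.68, 0.19, 0.47 and 0.37). Gbp6 and Tgtp2 also have near-identical relatives.

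**Figure D4:**
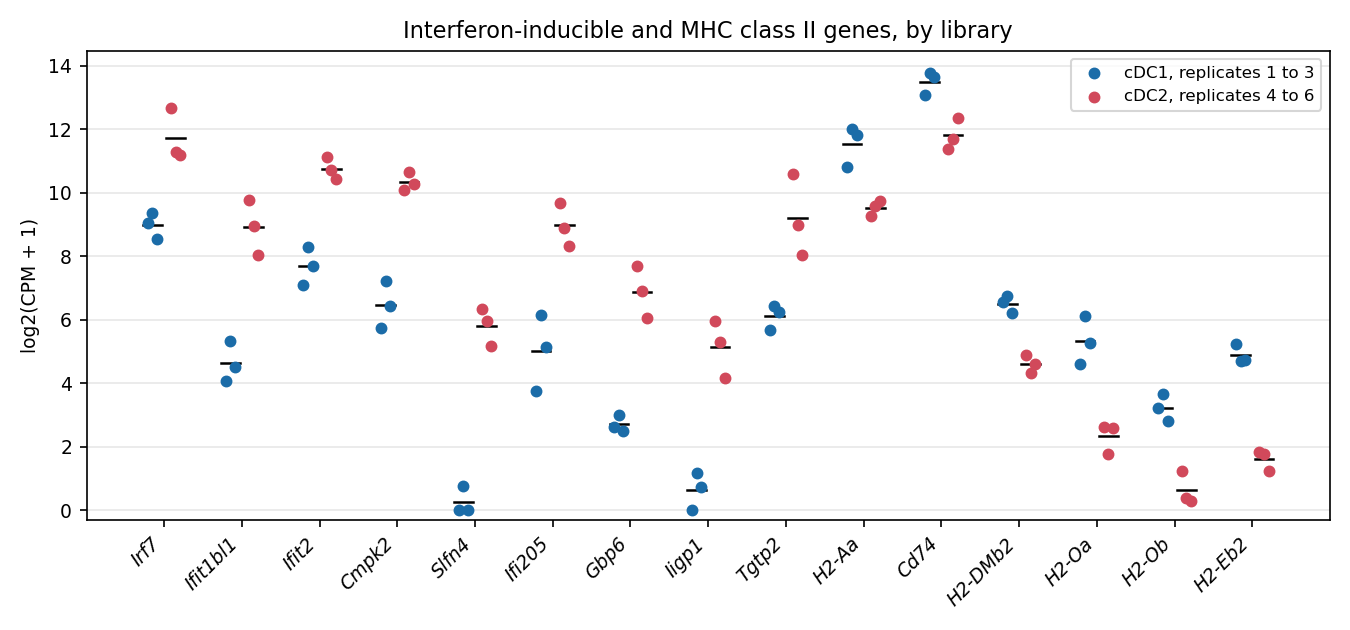
Level of 9 interferon-inducible and 6 MHC class II genes as log2(CPM + 1) (y axis) in each library with LPS plus PGPC, with points for libraries (blue cDC1, red cDC2) and bars for the means of the log values of a group. Red points lie above blue ones for the interferon-inducible genes on the left and below them for the class II genes on the right.

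Of 15 genes of LPS sensing, 2 were higher in the cDC2 libraries, with 1 without any 1 of the cDC1 replicates or cDC2 replicate 5 and 4 without cDC2 replicate 6. Tlr4, the LPS receptor, was at 3.08, 9.67 and 14.98 CPM in the cDC1 libraries and 72.1, 56.8 and 39.7 CPM in the cDC2 libraries, above in every cDC2 library (log2 difference 2.60 ± 0.58, adjusted p = 0.00697, 0.16 with all 36 libraries). Its co-receptor Cd14 was at 172, 160.2 and 162 CPM in the cDC1 libraries and 977, 378 and 270.3 CPM in the cDC2 libraries, also without overlap, but its difference of 1.72 ± 0.56 missed the threshold (adjusted p = 0.065). Without cDC2 replicate 6 the adjusted p of Cd14 was 0.036, by DESeq2 it was 0.021, and without the filter on low counts it was 0.009. Of 11 other Toll-like receptor genes 3 were higher, and 1 without cDC2 replicate 4. Tlr8, an endosomal RNA sensor, was at 0, 0.341 and 0 CPM in the cDC1 libraries and 29.1, 13.7 and 3.87 CPM in the cDC2 libraries, from 3 and 258 counts, a ratio of 163 (counting interval 55.1 to 795) (adjusted p = 0.000523, 0.0076 with all 36 libraries).

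IL-1β is the cytokine for which hyperactive cells are known, and its mRNA did not pass the test. Il1b was at 202, 385 and 324 CPM in the cDC1 libraries and 193, 287 and 282 CPM in the cDC2 libraries, with overlap and a log2 difference of -0.26 ± 0.64 (adjusted p = 0.888). The genes around it showed no call for the sensor and the enzymes either. Nlrp3, the inflammasome sensor, was at 4.11, 35.6 and 31.9 CPM in the cDC1 libraries and 56.5, 25.4 and 35.3 CPM in the cDC2 libraries (log2 difference 0.71 ± 0.51, adjusted p = 0.483). Casp1, which cleaves pro-IL-1β, was at 4.75, 22.6 and 16.3 CPM in the cDC1 libraries and 25.9, 40.6 and 37.4 CPM in the cDC2 libraries (log2 difference 1.25 ± 0.56, adjusted p = 0.206). Casp4, which senses cytosolic LPS and is also called caspase-11 in mice, was at 7.70, 19.2 and 13.1 CPM in the cDC1 libraries and 30.03, 48.9 and 54.02 CPM in the cDC2 libraries, above in every cDC2 library (log2 difference 1.73 ± 0.63, adjusted p = 0.0971). The pore-forming Gsdmd was at 322, 152 and 169 CPM in the cDC1 libraries and 588, 242 and 209.9 CPM in the cDC2 libraries (log2 difference 0.69 ± 0.47, adjusted p = 0.445). The standard errors ran from 0.47 to 0.64, and a p above the threshold does not show equal levels.

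Of 12 genes of the IL-1 family 2 were higher and none lower. Il1rn, the IL-1 receptor antagonist (chr2:24336853-24351494, plus strand), was at 21.4, 24.3 and 14.2 CPM in the cDC1 libraries and 1470.2, 708 and 454 CPM in the cDC2 libraries. The lowest cDC2 library was far above the highest cDC1 library, and the log2 difference was 5.45 ± 0.94 (adjusted p = 0.000682). Il18bp, which binds and neutralises IL-18, was at 7.70, 10.6 and 11.2 CPM in the cDC1 libraries and 98.9, 77.3 and 68.1 CPM in the cDC2 libraries (log2 difference 3.05 ± 0.56, adjusted p = 0.00121). Il1r2, the decoy receptor for IL-1, was at 1.03, 1.71 and 2.06 CPM in the cDC1 libraries and 0.446, 0 and 0.228 CPM in the cDC2 libraries and was not called (log2 difference -2.54 ± 0.87, adjusted p = 0.0777). Of 19 inflammasome and pyroptosis genes 3 were higher, and 1 without cDC2 replicate 4. Mefv, which encodes the sensor pyrin, was at 2.31, 0.569 and 0.562 CPM in the cDC1 libraries and 28.8, 14.97 and 8.89 CPM in the cDC2 libraries (log2 difference 3.94 ± 0.76, adjusted p = 0.00195). Fitted with all 36 libraries, the adjusted p was 0.15 for Il1rn, 0.31 for Il18bp and 0.015 for Mefv.

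The main inflammatory cytokines were not called. Tnf was at 27.1, 85.7 and 86.5 CPM in the cDC1 libraries and 92.6, 51.9 and 51.1 CPM in the cDC2 libraries (log2 difference -0.03 ± 0.45, adjusted p = 0.987) and Il6 at 2.05, 15.01 and 16.2 CPM in the cDC1 libraries and 11.002, 25.05 and 24.4 CPM in the cDC2 libraries (log2 difference 0.85 ± 0.61, adjusted p = 0.485), both with overlap. Il12b, the p40 chain of IL-12 through which cDC1 are known to drive Th1 responses, was at 96.3, 33.1 and 45.1 CPM in the cDC1 libraries and 12.8, 15.9 and 10.5 CPM in the cDC2 libraries. Every cDC2 library was lower, yet the difference of -2.16 ± 0.68 just missed the threshold (adjusted p = 0.0525). It passed by DESeq2 (adjusted p = 0.037), in the fit of the 6 libraries alone (0.024), without the filter on low counts (0.004) and with the replicate number as a block (0.02). Csf1, the growth factor of macrophages, was higher, at 26.4, 10.1 and 48.3 CPM in the cDC1 libraries and 92.9, 166 and 137 CPM in the cDC2 libraries (log2 difference 2.22 ± 0.48, adjusted p = 0.0049, 0.32 with all 36 libraries).

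Of 18 chemokine genes 6 were higher and none lower (4.6% and 2.54% over all genes). The higher count was 3 without cDC1 replicate 3 or cDC2 replicate 5. The median log2 difference of 0.10 was not stable: it ran from -0.08 without cDC1 replicate 1 to 0.79 without cDC1 replicate 2. Cxcl14 was at 0.385, 0 and 0.281 CPM in the cDC1 libraries and 6.99, 10.4 and 12.5 CPM in the cDC2 libraries (log2 difference 5.36 ± 0.70, adjusted p = 4.18e-05), Ccl7, which draws monocytes, at 0.770, 0.569 and 4.03 CPM in the cDC1 libraries and 10.3, 23.5 and 35.3 CPM in the cDC2 libraries (log2 difference 3.65 ± 0.84, adjusted p = 0.00855), and Cxcl11, a CXCR3 ligand, at 0.385, 0.455 and 0 CPM in the cDC1 libraries and 6.54, 7.33 and 10.9 CPM in the cDC2 libraries (log2 difference 4.82 ± 1.10, adjusted p = 0.0123). All 3 had levels of a few CPM or less in the cDC1 libraries. Cxcl11 is a polymorphic pseudogene in the gene annotation used for positions, and the strain is not stated, so a protein product cannot be assumed. Cxcl10, another CXCR3 ligand, was at 9.37, 92.8 and 35.96 CPM in the cDC1 libraries and 306, 220.2 and 188 CPM in the cDC2 libraries (log2 difference 2.37 ± 0.66, adjusted p = 0.0319). Its call was lost without cDC1 replicates 1 or 3 (adjusted p = 0.0863 and 0.111), without cDC2 replicates 4 or 5 (0.11 and 0.0655) and in the fit of the 6 libraries alone (0.058). The abundant T cell attractants Ccl5 and Ccl22 did not differ past the threshold: Ccl5 was at 1178, 2508 and 2495 CPM in the cDC1 libraries and 838, 1586 and 2767 CPM in the cDC2 libraries (log2 difference -0.25 ± 0.40, adjusted p = 0.793) and Ccl22 at 1017, 1666 and 1996 CPM in the cDC1 libraries and 1216, 886 and 912 CPM in the cDC2 libraries (log2 difference -0.63 ± 0.46, adjusted p = 0.48). Once all 36 libraries entered the fit, the adjusted p was 0.0031 for Cxcl14, 0.16 for Ccl7, 0.057 for Cxcl11 and 0.64 for Cxcl10.

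Of 13 chemokine receptors 3 were higher, and 1 without any 1 of the cDC1 replicates or without cDC2 replicate 4. Ccr1, an inflammatory receptor of monocytes, was at 25.04, 13.8 and 15.3 CPM in the cDC1 libraries and 111, 92.3 and 63.4 CPM in the cDC2 libraries (log2 difference 2.30 ± 0.49, adjusted p = 0.00463, 0.052 with all 36 libraries). Ccr7, which guides mature dendritic cells to lymph nodes, was high in both groups, at 4251, 2221 and 2719 CPM in the cDC1 libraries and 4649, 1835 and 1319 CPM in the cDC2 libraries (log2 difference -0.24 ± 0.52, adjusted p = 0.871). The groups overlapped, and the sign changed with the library left out.

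Among 10 costimulation genes 2 were lower in the cDC2 libraries and none higher, with a median log2 difference of -0.85 (-1.37 without cDC1 replicate 1). Icosl, the ligand of ICOS, was at 93.3, 140.3 and 117 CPM in the cDC1 libraries and 16.8, 15.9 and 16.2 CPM in the cDC2 libraries, the cDC2 libraries lying within 1 CPM of each other (log2 difference -2.84 ± 0.45, adjusted p = 0.000296, 0.011 with all 36 libraries). Cd83, a maturation marker that stabilises class II and CD86 at the surface, was at 1131, 568 and 588 CPM in the cDC1 libraries and 109, 186 and 171 CPM in the cDC2 libraries (log2 difference -2.30 ± 0.39, adjusted p = 0.000575, 0.85 with all 36 libraries). Cd40 and Cd86, the receptors most used to read maturation, were not called. Cd40 was at 134, 164 and 111 CPM in the cDC1 libraries and 182, 106 and 94.1 CPM in the cDC2 libraries (log2 difference -0.10 ± 0.50, adjusted p = 0.953) and Cd86 at 42.9, 79.5 and 46.6 CPM in the cDC1 libraries and 88.6, 84.9 and 64.3 CPM in the cDC2 libraries (log2 difference 0.49 ± 0.45, adjusted p = 0.598). Cd274, which encodes the inhibitory ligand PD-L1 (chr19:29367455-29388095, plus strand), was higher, at 94.5, 165 and 99.7 CPM in the cDC1 libraries and 486, 494 and 575 CPM in the cDC2 libraries (log2 difference 2.11 ± 0.46, adjusted p = 0.00491, 0.64 with all 36 libraries). It was the 1 call among 15 inhibitory genes.

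Genes of lipid handling were among the higher ones, 7 of 20 with none lower (4.6% and 2.54% over all genes). Their median log2 difference was 0.99, and 3 were higher without cDC1 replicate 2. Nr1h3, which encodes the oxysterol receptor LXRα, was at 14.3, 25.2 and 6.93 CPM in the cDC1 libraries and 530.3, 161 and 126 CPM in the cDC2 libraries (log2 difference 4.14 ± 0.59, adjusted p = 9.72e-05). Plin2, a coat protein of lipid droplets, was at 229, 152 and 174 CPM in the cDC1 libraries and 924, 981 and 970.0 CPM in the cDC2 libraries (log2 difference 2.37 ± 0.36, adjusted p = 0.000151). The 3 cDC2 libraries were nearly equal in Plin2, while in Nr1h3 replicate 4 stood well above the other two. Pla2g7, the secreted phospholipase that cleaves oxidised phospholipids such as PGPC, was at 3.34, 15.2 and 5.81 CPM in the cDC1 libraries and 256, 183 and 74.5 CPM in the cDC2 libraries (log2 difference 4.39 ± 0.56, adjusted p = 2.78e-05). Ptger2, a prostaglandin E2 receptor and 1 of 3 higher among 13 eicosanoid genes, was at 0.770, 0.682 and 0.656 CPM in the cDC1 libraries and 27.9, 9.78 and 9.12 CPM in the cDC2 libraries (log2 difference 4.44 ± 0.88, adjusted p = 0.00261). Cholesterol synthesis leaned the other way in its median of -0.87, with 2 of 21 called lower and none higher (2.54% and 4.6% over all genes). In the other treatments 3 of these genes were lower without treatment, 12 with LPS (median -1.68) and 1 with PGPC. Cyp51, an enzyme of that pathway, was at 255, 157 and 246 CPM in the cDC1 libraries and 92.9, 68.1 and 75.9 CPM in the cDC2 libraries (log2 difference -1.47 ± 0.34, adjusted p = 0.00784), and 1 of the 2 calls was lost without cDC2 replicate 4 or 5. In the same fit of 36 libraries the adjusted p was 0.03 for Nr1h3, 0.81 for Plin2, 0.0078 for Pla2g7, 0.015 for Ptger2 and 0.34 for Cyp51.

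Hmox1, which degrades haem and responds to oxidised lipids through NRF2 (chr8:75093621-75100589, plus strand), was at 290.3, 397 and 393 CPM in the cDC1 libraries and 2244, 1172 and 1229 CPM in the cDC2 libraries (log2 difference 2.10 ± 0.43, adjusted p = 0.00309, 0.92 with all 36 libraries). All cDC2 libraries were above all cDC1 libraries. It was the only gene called among 15 NRF2 targets.

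Of 13 cathepsins and cystatins 6 were higher and 1 lower (4.6% and 2.54% over all genes). The higher count was 4 without cDC1 replicate 2, cDC1 replicate 3 or cDC2 replicate 4. Ctsl, a lysosomal cysteine protease, was at 26.4, 24.9 and 22.01 CPM in the cDC1 libraries and 322, 316 and 259 CPM in the cDC2 libraries (log2 difference 3.61 ± 0.45, adjusted p = 2.20e-05). Within each group its libraries lay close together. Ctsb was at 1371, 1132 and 889.9 CPM in the cDC1 libraries and 5956, 7021 and 9998 CPM in the cDC2 libraries (log2 difference 2.76 ± 0.44, adjusted p = 0.000304) and Ctsd at 1113, 577 and 466 CPM in the cDC1 libraries and 2447, 2639.9 and 3064 CPM in the cDC2 libraries (log2 difference 1.92 ± 0.42, adjusted p = 0.00529). Both of these proteases were abundant in both groups. Ctsk, known from osteoclasts, was at 0.385, 0.569 and 0.375 CPM in the cDC1 libraries and 25.9, 8.25 and 15.04 CPM in the cDC2 libraries (log2 difference 5.15 ± 1.07, adjusted p = 0.0037). In the fit of all 36 libraries the adjusted p was 0.091, 0.65, 0.93 and 0.018 in that order.

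Nos2 and Arg1, which encode enzymes that use arginine, were close to absent from the cDC1 libraries. Nos2, the inducible nitric oxide synthase, was at 0, 0.114 and 0 CPM in the cDC1 libraries and 45.9, 7.64 and 3.65 CPM in the cDC2 libraries, from 1 and 350 counts, a ratio of 663 (counting interval 118 to 26267) (adjusted p = 0.00188, 0.018 with all 36 libraries). Arg1, arginase 1, was at 0, 0.341 and 0 CPM in the cDC1 libraries and 23.9, 14.7 and 22.8 CPM in the cDC2 libraries, from 3 and 309 counts, a ratio of 195 (counting interval 66.2 to 952) (adjusted p = 0.0103 by edgeR, 0.063 with all 36 libraries, 0.139 by DESeq2). Nos2 came largely from cDC2 replicate 4, whereas Arg1 was at a like level in all 3 cDC2 libraries. These belong to a list of 10 genes with 3 higher and 1 lower, and with 2 higher when any 1 of the 6 libraries was left out.

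Genes of the cell cycle were lower, 7 of 20 with none higher (2.54% and 4.6% over all genes). Their median log2 difference was -1.30. The count of 7 hung on single libraries: it was 1 without cDC1 replicate 2, 2 without cDC2 replicate 4, 3 without cDC2 replicate 5 and 4 without cDC2 replicate 6. In the other treatments 8 were lower without treatment, 7 with LPS and 8 with PGPC (medians -1.38, -1.67 and -1.72). Stmn1, a microtubule regulator of dividing cells, was at 35.3, 35.1 and 21.2 CPM in the cDC1 libraries and 3.72, 5.19 and 8.43 CPM in the cDC2 libraries (log2 difference -2.41 ± 0.50, adjusted p = 0.00369). Kit, the stem cell factor receptor carried by precursors and mast cells, was at 25.6, 109 and 57.3 CPM in the cDC1 libraries and 11.2, 8.86 and 11.2 CPM in the cDC2 libraries (log2 difference -2.62 ± 0.45, adjusted p = 0.000625). Mlkl, the pore former of necroptosis, was higher, at 11.3, 12.4 and 9.46 CPM in the cDC1 libraries and 76.9, 72.1 and 49.5 CPM in the cDC2 libraries (log2 difference 2.58 ± 0.41, adjusted p = 0.000289), and Notch1, a receptor that guides dendritic cell fate, was at 7.96, 25.9 and 8.05 CPM in the cDC1 libraries and 63.9, 65.4 and 50.4 CPM in the cDC2 libraries (log2 difference 2.10 ± 0.44, adjusted p = 0.00401). Each of these 4 genes had no overlap between the groups. Their adjusted p with all 36 libraries was 0.19, 0.078, 0.8 and 0.43.

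The widest relative differences were in genes with few or no counts in 1 group. F7, which encodes coagulation factor VII, had no count in the cDC1 libraries and was at 26.9, 6.41 and 4.79 CPM in the cDC2 libraries, at least 37.8-fold higher against a floor of 3 counts per library (adjusted p = 0.00244). Sox9, a transcription factor of cartilage and epithelial progenitors, was likewise without counts in cDC1 and at 9.37, 11.3 and 14.1 CPM in cDC2, at least 34.5-fold higher (adjusted p = 0.00226). Slit2, a guidance cue without counts in cDC1, was at 11.6, 8.55 and 13.2 CPM in cDC2, at least 33.1-fold higher (adjusted p = 0.00255). Adra1a, an adrenergic receptor also without counts in cDC1, was at 23.6, 5.50 and 3.87 CPM, at least 32.8-fold higher (adjusted p = 0.000651). Col3a1, a collagen chain of fibroblasts, had 1 count in cDC1 and 351 in cDC2, where it was at 30.6, 19.9 and 18.2 CPM, a ratio of 665 (counting interval 119 to 26342) (adjusted p = 0.00188). None of these genes is typical of dendritic cells. They were named by a rule that required no overlap, so presence of all 5 in all 3 cDC2 libraries follows from it. On a list of 15 fibroblast genes added after these values were seen, 4 of 12 tested were higher and none lower (4.6% of all genes were higher). They are Col1a1, Col1a2, Lum and Col3a1 itself, which prompted the list, so the count in part restates that gene. The summed level was 66.8, 13.4 and 93.8 CPM in the cDC1 libraries and 636, 446 and 327 CPM in the cDC2 libraries. The part of such cells in the differences was not tested. The fit of all 36 libraries gave an adjusted p of 0.016 for F7, 0.016 for Sox9, 0.017 for Slit2, 0.0072 for Adra1a and 0.016 for Col3a1.

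In the other direction, Cldn1, a tight junction protein, was at 37.5, 158 and 129 CPM in the cDC1 libraries and 1.49, 1.53 and 7.52 CPM in the cDC2 libraries (log2 difference -4.94 ± 0.67, adjusted p = 5.15e-05). Cd7, known from lymphocytes and their precursors, was at 2.82, 24.8 and 14.7 CPM in the cDC1 libraries and 0.149, 0.305 and 0 CPM in the cDC2 libraries, from 397 and 2 counts, a ratio of cDC1 to cDC2 of 105 (counting interval 28.8 to 868, adjusted p = 8.47e-05). Asb2, part of a ubiquitin ligase in dendritic cells, was at 89.6, 103 and 35.6 CPM in the cDC1 libraries and 5.35, 3.05 and 0.912 CPM in the cDC2 libraries (log2 difference -4.56 ± 0.77, adjusted p = 0.000541). Each of these was lower in every cDC2 library, as the rule that named them required. Rtn4rl1, a Nogo receptor relative, was at 6.16, 12.4 and 11.4 CPM in the cDC1 libraries and 0.297, 0.305 and 0.684 CPM in the cDC2 libraries (log2 difference -4.50 ± 0.81, adjusted p = 0.00102). Ighm, the heavy chain of IgM, was at 213, 144 and 130.5 CPM in the cDC1 libraries and 14.6, 11.9 and 7.98 CPM in the cDC2 libraries (log2 difference -3.82 ± 0.59, adjusted p = 0.00022). Tnfrsf13c, the BAFF receptor, was at 6.16, 3.87 and 11.1 CPM in the cDC1 libraries and 0.446, 0.611 and 1.14 CPM in the cDC2 libraries (log2 difference -3.26 ± 0.65, adjusted p = 0.00264). Mmp8, a neutrophil collagenase on the granulocyte list, was higher in cDC2 from 75 counts against 1, a ratio of 142 (counting interval 24.7 to 5687, adjusted p = 0.0017). The fit of all 36 libraries gave 0.0033 for Cldn1, 0.0072 for Cd7, 0.26 for Asb2, 0.019 for Rtn4rl1, 0.56 for Ighm, 0.017 for Tnfrsf13c and 0.037 for Mmp8.

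Whether the cell type difference was itself changed by the treatment was tested as an interaction. Against untreated cells 38 genes (0.305%) had a different cell type gap with LPS plus PGPC, 28 shifted towards cDC2 (0.225%) and 10 towards cDC1 (0.0802%), and 1210.0 had an unadjusted p under 0.05. These tests and those against LPS and PGPC alone all use the same 6 libraries with LPS plus PGPC. The count was 5, 16 and 19 without untreated cDC2 replicates 4, 5 and 6, and 24 without untreated cDC1 replicate 2. With LPS plus PGPC it was 62 without cDC1 replicate 1, 22 without cDC1 replicate 3 and 18 without cDC2 replicate 5. Over all 36 libraries it was 3, and DESeq2 called 224. Untreated cDC2 replicate 6 held only 243870 counts, so its floor of 3 counts was 11.2 CPM and low levels were poorly resolved there. The ribosomal RNA locus made up 71.9% of untreated cDC1 replicate 1.

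Lag3, an inhibitory receptor, had a gap that changed by 6.45 ± 1.12 on the log2 scale (adjusted p = 0.00753, 0.06 without untreated cDC2 replicate 4, and 0.034 with all 36 libraries). Cst7, an inhibitor of cathepsins, changed by 5.54 ± 1.06 (adjusted p = 0.0147, 0.0937 without untreated cDC2 replicate 5). When all 36 libraries were fitted, Cst7 did not pass (0.064). Plac8, a lysosomal protein, changed towards cDC2 by 5.29 ± 1.05 (adjusted p = 0.023, lost in 6 of 12 fits without 1 library). Slco3a1, an organic anion transporter, had no count in untreated cDC2, so its fitted change of 11.28 depends on the prior count and is no bound (adjusted p = 0.0109, lost without untreated cDC2 replicates 4 or 5).

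Ctsl had a gap with LPS plus PGPC and none that passed the test in untreated cells. Untreated cDC1 held 300.0 ± 198 CPM (SD, n = 3) and untreated cDC2 317 ± 65.5, a gap of 0.08 ± 0.41 on the log2 scale, which changed by 3.53 ± 0.60 to the 3.61 ± 0.45 given above (adjusted p = 0.00753). The cDC2 libraries lay near the untreated cDC2 mean and the cDC1 libraries far below the untreated cDC1 mean. The call held with each of the 12 libraries left out, but not with all 36 libraries (adjusted p = 0.73). Cd300lf changed by 4.90 ± 0.89 (adjusted p = 0.0104, 0.0502 without untreated cDC2 replicate 4), C1qb by 3.20 ± 0.65 (adjusted p = 0.028) and Hmox1 by 2.83 ± 0.59 (adjusted p = 0.0307). The calls of C1qb and Hmox1 were lost in 7 and 9 of 12 fits without 1 library, where the adjusted p reached 0.0981 and 0.112.

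Genes whose gap moved towards cDC1 included Tnfrsf11a, the receptor RANK. Untreated cDC1 held 16.7 ± 2.94 CPM (SD, n = 3) and untreated cDC2 436 ± 52.96, and with LPS plus PGPC the levels were 65.1, 245 and 246 CPM in the cDC1 libraries and 388, 337 and 431 CPM in the cDC2 libraries. The change in the gap was -3.66 ± 0.63 on the log2 scale (adjusted p = 0.00753), a call that held with each of the 12 libraries left out and not with all 36 (adjusted p = 0.73). The cDC1 libraries lay above the untreated cDC1 mean and the cDC2 libraries near the untreated cDC2 mean. Cd83 changed by -2.73 ± 0.55 (adjusted p = 0.0273, lost in 5 of 12 fits without 1 library). Mylip, a ubiquitin ligase for the LDL receptor, changed by -3.58 ± 0.76 (adjusted p = 0.0321) and Slc16a10, an amino acid transporter, by -2.98 ± 0.62 (adjusted p = 0.0307). Their calls were lost in 9 and 10 of 12 such fits. Slc4a3, an anion exchanger, and Itgb8, an integrin chain, had no count in untreated cDC1, so the fitted sizes of -10.29 and -7.98 depend on the prior count and are no bound (adjusted p = 0.0307 and 0.0307, lost in 8 and 7 of 12 fits).

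Against LPS alone 1 gene (0.00802%) had a different cell type gap with LPS plus PGPC by edgeR's quasi-likelihood test, while 996 had an unadjusted p under 0.05. DESeq2 called 53, edgeR 97 without the filter on low counts and 0 with all 36 libraries, and leaving out LPS-treated cDC2 replicate 4 gave 46. Without LPS-treated cDC1 replicate 3 there were 2, and without cDC1 replicate 2 or cDC2 replicate 6 of LPS plus PGPC 5 and 2. The gene was Nrp1, the semaphorin and VEGF co-receptor neuropilin 1. With LPS alone cDC1 held 42.5 ± 11.4 CPM and cDC2 3.98 ± 1.80 (SD, n = 3), a gap of -3.35 ± 0.45 on the log2 scale. The cDC2 level was near the floor, since LPS-treated cDC2 replicates 4, 5 and 6 held 1892082, 1883603 and 980502 counts. Their floors of 3 counts were 1.54, 1.62 and 2.93 CPM. With LPS plus PGPC Nrp1 was at 43.01, 35.7 and 28.5 CPM in the cDC1 libraries and 74.3, 54.4 and 32.8 CPM in the cDC2 libraries, a gap of 0.59 ± 0.37. The change of 3.94 ± 0.58 (adjusted p = 0.00498) held with each of the 12 libraries left out, but not with all 36 libraries (adjusted p = 0.9999). Untreated and PGPC-treated cells had gaps of 0.65 ± 0.37 and 0.99 ± 0.41, so LPS alone was the treatment in which cDC2 stood low.

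For most genes described above, the change against LPS alone missed the threshold with wide errors. It was -0.83 ± 0.81 for Fcgr1 (adjusted p = 0.836), -0.02 ± 0.57 for C1qb (1), 2.64 ± 0.88 for Cd300lf (0.466) and 2.05 ± 0.59 for Ctsl (0.337). It was 0.79 ± 1.11 for Il1rn (adjusted p = 0.899), 0.75 ± 0.79 for Irf7 (0.853), -1.29 ± 0.60 for H2-Aa (0.606) and -1.25 ± 0.91 for Il1b (0.763). A p above the threshold does not show that the gaps were equal.

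Against PGPC alone 248 genes (1.99%) had a different gap, 141 shifted towards cDC2 (1.13%) and 107 towards cDC1 (0.859%). One PGPC-treated cDC2 library of 3805 counts was left out of the fit, so that group had 2 libraries. The count was 33 without PGPC-treated cDC2 replicate 4, and 54 without its replicate 5, each of which leaves that group 1 library assumed to vary like the rest. It was 119 without cDC1 replicate 3 and 127 without cDC2 replicate 5 of LPS plus PGPC, and 24 with all 36 libraries. Cd300lf changed by 7.93 ± 1.06 (adjusted p = 0.000753), from a gap of -1.54 ± 0.76 with PGPC to 6.39 ± 0.72. Ctsl changed by 4.08 ± 0.66 (adjusted p = 0.00223). Both held with each library left out, and Cd300lf also with all 36 libraries (adjusted p = 0.0041), where Ctsl did not (0.19).

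Among annotated genes of at least 5 CPM in 1 group, the largest fitted changes against PGPC alone belonged to genes with few or no counts in a group, and their sizes depend on the prior count and are no bound. Towards cDC2 they were 13.91 for Fam174b, 13.38 for P2ry12, 13.13 for Apol9b, 12.66 for Scimp and 12.31 for Ly6c2 (adjusted p = 0.0215, 0.0274, 0.00541, 0.0303 and 0.00658), all without counts in PGPC-treated cDC2. Apol9b, an interferon-inducible apolipoprotein L, and Ly6c2, a monocyte surface antigen, kept their calls unless PGPC-treated cDC2 replicate 4 was left out, and the other 3 lost theirs in 2 to 5 of 11 fits without 1 library. Towards cDC1 they were -9.999 for Slc4a3, -9.66 for Rasal1, -9.57 for Arhgap28, -9.03 for Bmp2 and -8.998 for Rasip1 (adjusted p = 0.00665, 0.038, 0.000876, 0.0446 and 0.00989), without counts in PGPC-treated cDC1 except Rasal1. Slc4a3 and Arhgap28 kept their calls in each of 11 fits, Rasip1 lost its own without PGPC-treated cDC2 replicate 4, and Rasal1 and Bmp2 lost theirs in 9.

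Fcgr1 changed by 4.402 ± 0.88 against PGPC alone (adjusted p = 0.00901, 0.129 without PGPC-treated cDC2 replicate 4), C1qb by 3.94 ± 0.72 (adjusted p = 0.00529, 0.0718 without it) and Hmox1 by 2.93 ± 0.64 (adjusted p = 0.0172, lost without PGPC-treated cDC2 replicate 4 or 5). For Hmox1 the gap was -0.82 ± 0.47 with PGPC, -0.72 ± 0.41 without treatment and 1.84 ± 0.43 with LPS. It was positive in both treatments that contain LPS. Fitted with all 36 libraries, none of these 3 changes passed (adjusted p = 0.099, 0.57 and 0.96). The median gap of the 18 monocyte or macrophage genes was 0.70 with PGPC, 1.39 without treatment, 3.54 with LPS and 2.28 with LPS plus PGPC. Of these 18 genes 8 had a gap that shifted towards cDC2 against PGPC alone (1.13% over all genes) and none towards cDC1.

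**Figure D5:**
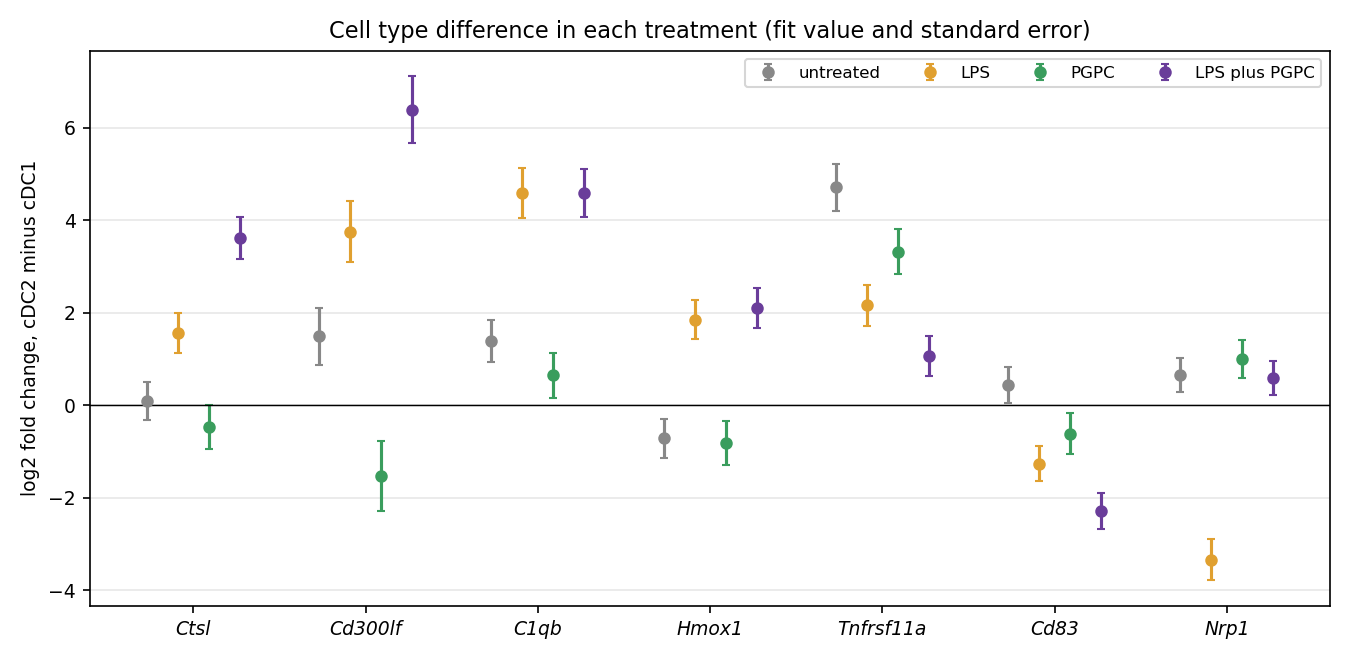
Log2 difference of cDC2 minus cDC1 (y axis) in untreated cells and with LPS, PGPC and LPS plus PGPC for 7 genes whose cell type gap was tested between treatments, with points for fitted differences and bars for their standard errors. Ctsl lies near 0 without treatment and with PGPC and at 3.61 with LPS plus PGPC, and Nrp1 lies below 0 with LPS only.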

How the data were processed

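RNA was measured in mouse bone marrow dendritic cells. Per the labels it was extracted with RNeasy Plus Micro and amplified by Smart-Seq2, and Nextera XT libraries were read from both ends on a NextSeq. The authors deposited RSEM expected counts for each gene symbol, with GRCm38 and bcl2fastq 2.2 named per the submitters' processing notes. No source used here gives the RSEM version, the aligner, the annotation or any strand setting, and no molecular identifiers are named, so reads of overlapping genes cannot be told apart and intervals and floors cover counting error only. The table holds 53299 genes and 36 sample columns, all mapped to samples by their names.

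Counts were rounded to whole numbers (20.95% of nonzero values were not whole). edgeR 4.0.16 with limma 3.58.1 in R 4.3.3 fitted its quasi-likelihood model with TMM scaling to 23 libraries in 8 groups, the 2 cell types with no treatment, LPS, PGPC and LPS plus PGPC. Alum libraries and 1 PGPC-treated cDC2 library were left out. The filterByExpr function, at a minimum count of 10 and a minimum total of 15, left 12463 genes, 15 residual degrees of freedom and a biological coefficient of variation of 0.545. Adjusted p-values are Benjamini-Hochberg over these genes, with a threshold of 0.05, and are edgeR's unless another tool is named. Standard errors were computed from the log2 fold change and its F statistic. CPM are per TMM-scaled total, and the floor of 3 counts was 0.281 to 0.916 CPM in the 6 libraries compared. Counting intervals are exact conditional 95% intervals of the ratio of summed counts.

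On simulated counts for this comparison over 12463 genes, 50 genes each were changed by a log2 of 1, 2, 3 and 4. Of these, 4%, 32%, 76% and 94% were called, with 4 false calls. These values hold for the simulated counts only. Whether the libraries compared vary in the same way as those counts was not tested. The members, the gene lists and the rule for naming genes were chosen with earlier results of these data known. Named genes were called genes of at least 5 CPM without overlap at both ends of the fold changes, up to 4 genes of each list by smallest adjusted p, a panel of cytokine, maturation and identity genes, and up to 5 genes each way per interaction. Gpnmb, Sdc1, Lyz2, Cd68, C3ar1, Stab1, Ifi205, Ifit1, H2-Ob, H2-DMb2, the interactions of Ctsl, Cd300lf, C1qb, Fcgr1 and Cd83, the Y box, the promoters shown and the fibroblast, lysosome and ribosomal protein lists were chosen after their values were seen. Gene positions are from GENCODE M21 on GRCm38, and promoters from the RefSeq promoter table (GRCm38.p6), each motif being searched on both strands. Alternatives were RLE scaling, no filter on low counts, a replicate block, all 36 libraries, only the 6 libraries, no ribosomal RNA and mitochondrial genes, DESeq2 1.42.0, and each library left out. Some results are not reported here.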

Additional observations from a re-analysis of the deposited data

Results flagged for a closer look

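For 30 of the values named in the report, the difference between cDC2 and cDC1 with LPS plus PGPC was itself different from that in another treatment, by edgeR's quasi-likelihood test of the change in the gap with Benjamini-Hochberg adjustment. Values are changes in the log2 gap, and a positive value is a shift towards cDC2. Against untreated cells the change was 6.45 for Lag3, 5.54 for Cst7, 5.29 for Plac8, 4.90 for Cd300lf, 3.53 for Ctsl, 3.20 for C1qb and 2.83 for Hmox1. It was -3.66 for Tnfrsf11a, -3.58 for Mylip, -2.98 for Slc16a10 and -2.73 for Cd83. Against LPS alone it was 3.94 for Nrp1. Against PGPC alone it was 7.93 for Cd300lf, 4.402 for Fcgr1, 4.08 for Ctsl, 3.94 for C1qb and 2.93 for Hmox1. Genes with few or no counts in a group had fitted changes that depend on the prior count and are no bound: 11.28 for Slco3a1, -10.29 for Slc4a3 and -7.98 for Itgb8 against untreated cells, and 13.91 for Fam174b, 13.38 for P2ry12, 13.13 for Apol9b, 12.66 for Scimp, 12.31 for Ly6c2, -9.999 for Slc4a3, -9.66 for Rasal1, -9.57 for Arhgap28, -9.03 for Bmp2 and -8.998 for Rasip1 against PGPC alone. Ctsl, Cd300lf, C1qb and Hmox1 thus changed against both untreated and PGPC-treated cells, 2 tests that share the 6 libraries with LPS plus PGPC. No group here has more than 3 libraries, so no library was examined for standing apart within its group.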

How the results depend on the processing

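The counts of calls kept within 1.5 times under RLE scaling and without ribosomal RNA and mitochondrial genes. With all 36 libraries, 143 genes were called (118 higher, 25 lower), and 3 (3 higher, 0 lower), 0 (0 higher) and 24 (14 higher, 10 lower) for the change against untreated, LPS-treated and PGPC-treated cells. With 35 libraries, a setting chosen after seeing the data, these were 136 (116 and 20), 0 (0 and 0), 0 (0 higher) and 15 (9 and 6). The cause was not tested. Without the filter on low counts the 3 changes gave 221 (136 higher, 85 lower), 97 (36 higher) and 519 (280 higher, 239 lower), and DESeq2 gave 224 (131 and 93), 53 (25 higher) and 563 (291 and 272). For the cell type difference itself DESeq2 called 513 genes lower, against 317, and the fit of the 6 libraries alone called 140 lower. Of the calls 82.5% were higher with all 36 libraries and 79.2% with the 6 alone, against 64.4%. Leaving out 1 library at a time gave 401 to 844 calls, 298 to 531 higher and 103 to 313 lower. For the change against untreated cells it gave 5 to 62 calls, 4 to 44 higher and 1 to 18 lower. Against LPS it gave 1 to 46 calls, 1 to 33 higher, and against PGPC 33 to 323, 12 to 154 higher and 21 to 181 lower. Of 83 genes named and called with LPS plus PGPC, 31 were called with all 36 libraries and 79 of 82 tested with the 6 alone. Log2 differences that changed sign were all of uncalled genes: Tnf ran from -0.38 to 0.21 over the libraries left out, Ccl5 from -0.76 to 0.084, Ccr7 from -0.95 to 0.093 and Cd40 from -0.44 to 0.085. In detail Tnf was 0.20 and 0.21 without cDC1 replicates 2 and 3 and 0.11 and 0.13 without cDC2 replicates 5 and 6, Ccl5 was 0.08 without cDC2 replicate 4, Ccr7 was 0.09 without cDC1 replicate 1 or cDC2 replicate 6, and Cd40 was 0.06, 0.02 and 0.09 without cDC1 replicate 2, cDC2 replicate 5 and cDC2 replicate 6. The cDC1 and cDC2 libraries share no replicate number, so the replicate block pairs libraries across treatments only. Correlations of same-numbered deviations were -0.19 to 0.52 over 17 pairs, with a median of 0.06 and 6 over 0.1. Those of other-numbered deviations were -0.45 to 0.33 over 34 pairs, with a median of -0.04 and 3 over 0.1. Whether the numbers pair samples across treatments is not stated and was not settled by these values. The main fit did not use them, and the block is given as an alternative. With the block 895 genes were called (582 higher, 313 lower), the changes gave 46 (35 and 11), 1 and 218 (126 and 92), and Xcr1 was at -0.40. Depth limited genes near the floor of 3 counts.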

Other observations

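Genes of cytoplasmic ribosomal proteins, a group chosen after the called genes had been seen, were lower in the cDC2 libraries with LPS plus PGPC. Of 77 tested, 32 were lower and none higher by edgeR (2.54% and 4.6% over all genes). A negative log2 difference was seen in 74, and the median was -1.43. Their summed level was 16180.5, 18988 and 19674 CPM in the cDC1 libraries and 4223, 6399 and 9269 CPM in the cDC2 libraries, so every cDC2 library was below every cDC1 library. Of the 32 calls, 23, 12 and 11 were kept without cDC1 replicates 1, 2 and 3, and 3, 9 and 30 without cDC2 replicates 4, 5 and 6. The median was -2.17 without treatment (70 lower), -1.07 with LPS (10 lower) and -1.26 with PGPC (28 lower). Many ribosomal protein genes have processed copies in the genome, between which reads may have been split.

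Of 32 lysosome genes, also listed after the calls had been seen, 5 were higher and none lower (4.6% and 2.54% over all genes). Their median was 0.32, with 12 negative values. The summed level was 14572, 11111 and 10325 CPM against 26414, 18723 and 23839 CPM. Gpnmb, a glycoprotein of lipid-loaded macrophages, was at 199, 139 and 83.7 CPM in the cDC1 libraries and 7893, 3298 and 2917 CPM in the cDC2 libraries (log2 difference 5.06 ± 0.61, adjusted p = 1.09e-05). Sdc1, a heparan sulfate proteoglycan known from plasma cells, was at 20.2, 13.4 and 12.5 CPM against 305, 286 and 153 CPM (log2 difference 4.02 ± 0.39, adjusted p = 2.62e-06). Neither gene overlapped between the groups, and Sdc1 also passed with all 36 libraries (adjusted p = 0.043).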
